A study of Mus musculus with 6 samples.

Results

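The genes described here are 48 genes of the machinery that releases neurotransmitter from synaptic vesicles. They were chosen by symbol from general knowledge of the pathway, with earlier results of these data known. All 48 were found, by Ensembl identifier, among the 22095 genes of the deposited count table. They comprise synaptotagmins and Doc2 proteins, synapsins and other proteins of the vesicle, the SNARE proteins with their partners, the Rab3 proteins with the scaffold of the active zone, and 3 genes of vesicle retrieval.

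A synaptic vesicle is filled with transmitter, held near the release site by synapsins, docked by Rab3 and the RIM proteins, and primed by Munc13. Fusion is driven by the SNARE proteins, which are a syntaxin and SNAP-25 on the plasma membrane and synaptobrevin (VAMP) on the vesicle. Complexins bind the assembled SNAREs, and synaptotagmins trigger fusion when calcium enters the terminal. In the olfactory bulb these proteins serve the axon terminals of sensory neurons, the mitral and tufted cells that carry the signal onward, and the granule and periglomerular interneurons, many of which release GABA from dendrites.

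Polyadenylated RNA was sequenced from tissue labelled olfactory bulb of 3 ICR mice, an outbred stock. A silica gel plug was placed in the left naris at postnatal day 30 and the bulbs were dissected 60 days later, after perfusion. The left bulb (plugged side) and the right bulb (open side) of mice 1037, 1038 and 1039 gave 1 library each, and every mouse was plugged, so the right bulb is the control within the same animal and no unplugged mouse was analysed here. The sources used here do not give the sex of the mice. A difference between the sides that exists without a plug cannot be told apart from one that follows it. Libraries held 14571453 to 15590938 counts, and levels are given as CPM, the count of a gene scaled to 1e6 counts of its library. A count of 3, the limit that a count of 0 allows, stood for 0.192 to 0.206 CPM and covers counting error only.

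The library labelled left 1038 went against its label. Markers of cerebellar granule cells (Cbln3, Gabra6, Fat2, Cbln1 and Neurod1) summed to 4667.8 CPM in it and to 73.6 to 115 CPM in the other libraries. The interneuron transcription factors Dlx2 and Dlx6 were at 0 counts there. It is described apart, and the sides were compared over 5 libraries, 2 left and 3 right. The fit of all 6 libraries is given beside that result. Of the 13 genes of the mitochondrial genome, the summed share of counts was 3.63% to 4.35% in the left and 4.94% to 5.1% in the right libraries.

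In the right bulbs the machinery spanned a wide range of levels. Compared per kilobase of exon, Cplx1, which encodes complexin 1, was highest at 397 ± 5.05 CPM per kb (SD, n = 3). Vamp2 (synaptobrevin 2) and Snap25, both core SNARE genes, followed at 299 ± 10.2 and 295 ± 4.03 CPM per kb and did not differ beyond their spread. Syt1, the calcium sensor of fast release, stood at 196 ± 10.1 CPM per kb. Syp (synaptophysin) at 158 ± 1.67 and Rab3a at 153 ± 6.54 CPM per kb lay within their spread of each other, as did Dnm1 (dynamin 1) at 144 ± 2.08 and Sv2a at 143 ± 3.85 CPM per kb.

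At the low end, Syt2 stood at 0.419 ± 0.176 CPM per kb, 0.106% of the level of Cplx1. Syn3, Cplx3 and Unc13b were next with 1.29, 1.79 and 2.17 CPM per kb. Syt11 was the highest of the synaptotagmins other than the calcium sensors, at 103 ± 0.291 CPM per kb. Exon lengths merge every annotated transcript of a gene, so a gene with rarely used long transcripts, such as Unc13b with 22746 bases, is understated on this scale.

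**Figure D1:**
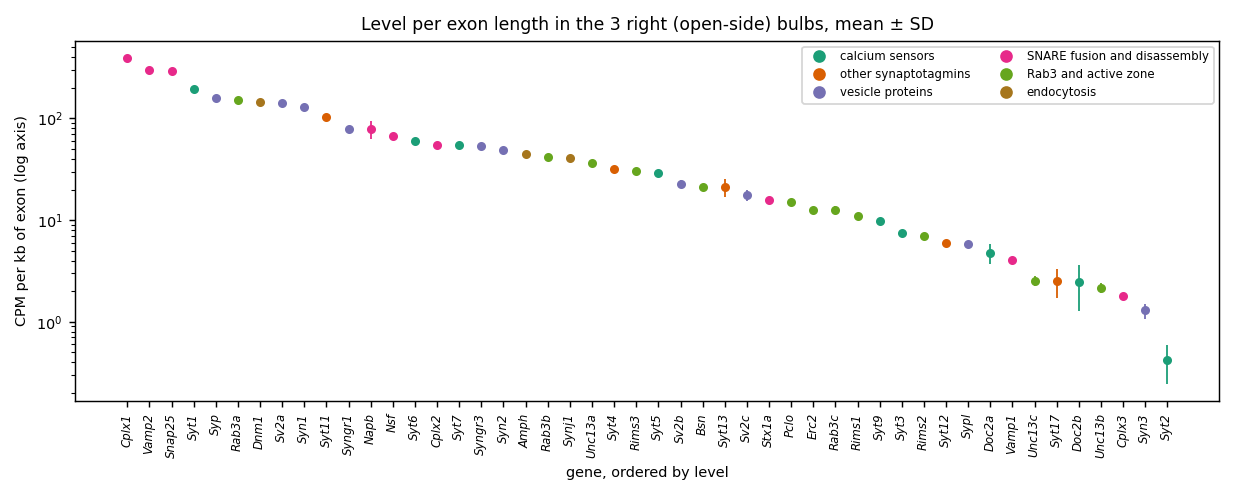
Mean level of each of the 48 genes in the 3 right bulbs, in CPM per kilobase of exon on a log axis, with bars for the SD and colours for the role. Levels run from 397 CPM per kb (Cplx1) to 0.419 CPM per kb (Syt2).

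On the plugged side more genes of the release machinery were called lower than higher, and most did not pass the test. Of the 48 genes, 16 fell, 2 rose and 30 did not pass the test (edgeR's quasi-likelihood test with Benjamini-Hochberg adjustment over the 14412 genes tested, at an adjusted p under 0.05). Across all genes tested 6.46% were called lower and 3.16% higher. Among the 2593 genes with a mean of at least 100 CPM, 17.4% were called lower and 3.93% higher, and 30 of the release genes lay at that level, of which 14 were called lower and 0 higher. The median log2 fold change (left over right) was -0.22 for the 48 genes and 0.0049 for all genes tested. The changes were small: no member passed 2-fold, and the called falls ran from 15.4% (Syp) to 47.9% (Syt12). In bulk tissue, fewer cells of a type and less RNA per cell cannot be told apart.

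Each of the 16 falls and both rises went the same way in mouse 1037 and in mouse 1039. With the scaling of the fit applied (TMM factors of 1.033 and 1.036 on the left and 0.971 to 0.983 on the right), left and right values did not overlap for 27 members with the left lower and for 3 with the left higher, against 21.9% and 20.2% of all genes tested. Without that scaling the CPM values themselves did not overlap for 22 members with the left lower and 5 with the left higher, against 13.2% and 33.2% of all genes tested. The fitted log2 fold changes lie 0.08 below the log2 ratio of the CPM values printed below. Scaled by total library size instead, 11 members were called lower and 2 higher, where 4.09% of all genes were called lower and 6.77% higher, and Pclo, Rab3a, Rims2, Syp and Syt1 no longer passed. In the fit of all 6 libraries edgeR called 0 members and 0 of 14209 genes (0.0%), with 9 members and 1196 genes at an unadjusted p under 0.05, and the members' median was -0.05. The count of members called lower was 8 without right 1037 (3.35% of all genes in that fit), 9 without right 1038 (3.41%) and 12 without left 1039 (4.06%). It was 12 without right 1039 (5.1%) and 15 without left 1037 (5.24%). DESeq2 called 18 members lower and 2 higher (6.5% and 3.03% of all genes), and limma-voom 17 and 2 (6.47% and 3.18%).

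**Figure D2:**
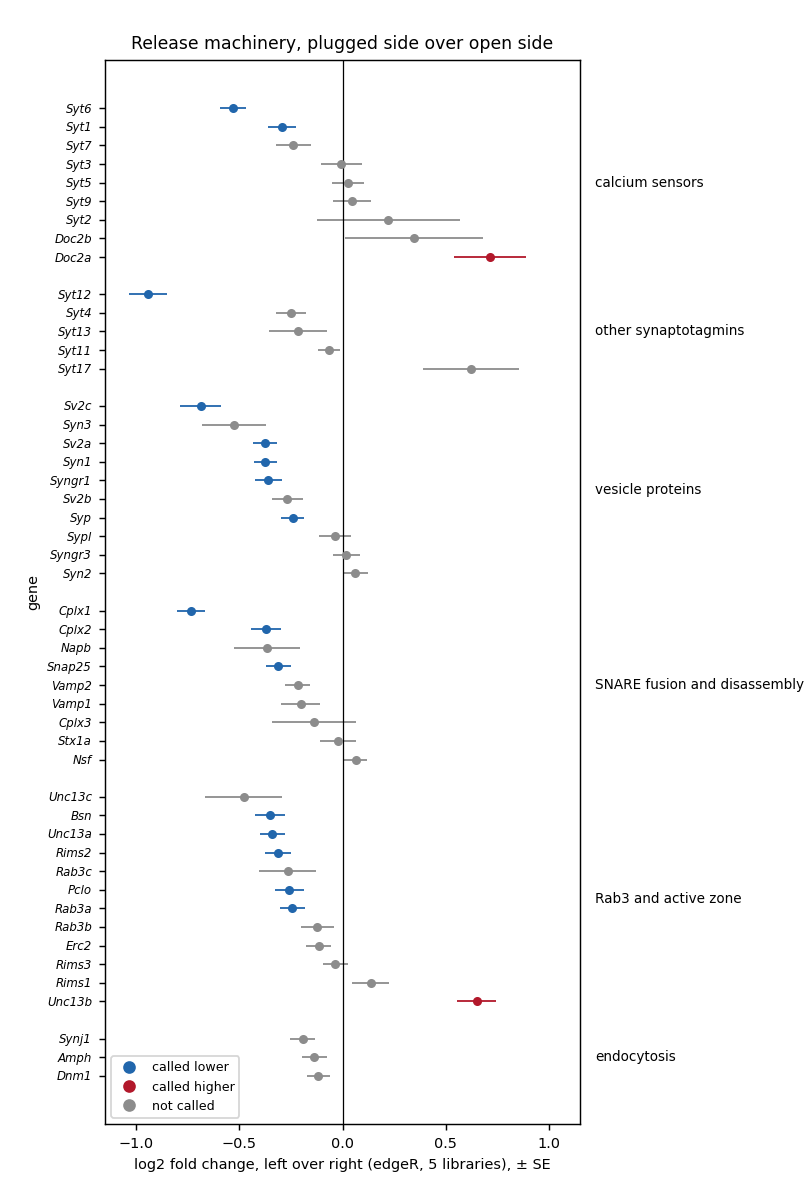
Log2 fold change of each member, left over right, in the 5 libraries, with bars for the SE, grouped by role and coloured by call. The 16 genes called lower lie between -0.94 (Syt12) and -0.24 (Syp), and Unc13b and Doc2a lie above 0 at 0.65 and 0.71.

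Proteins of the vesicle itself held 5 falls and 0 rises among 10 genes (median log2 fold change -0.31). Sv2c, Sv2a and Sv2b encode the SV2 glycoproteins, which modulate the readiness of vesicles for release. Sv2c (chromosome 13, 95954594 to 96132577, GRCm38) stood at 108 and 115 CPM in left 1037 and left 1039, and at 192, 166 and 150 CPM in right 1037, right 1038 and right 1039. Every left value lay below every right one, with a fall of 0.69 on the log2 scale (SE 0.10, adjusted p = 0.00338). Sv2a, the form found at most synapses, stood at 533 and 551 CPM on the left and 646, 681 and 668 CPM on the right. It fell by 22.9% (log2 fold change -0.38, SE 0.06, adjusted p = 0.00406), while Sv2b had -0.27 (SE 0.08, adjusted p = 0.0589).

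Syn1, the synapsin that tethers vesicles of the reserve pool, stood at 354 and 343 CPM on the left and at 420, 432 and 429 CPM on the right. The groups did not overlap, and Syn1 fell by 22.8% (log2 fold change -0.37, SE 0.05, adjusted p = 0.00356). Its paralogue Syn2 stood at 360 and 394 CPM on the left and at 337, 332 and 354 CPM on the right, with 0.06 (SE 0.06, adjusted p = 0.588). Syngr1, synaptogyrin 1, stood at 324 and 307 CPM on the left and at 374, 407 and 365 CPM on the right, and fell by 22.1% (log2 fold change -0.36, SE 0.07, adjusted p = 0.00938). Syp, the abundant vesicle protein synaptophysin, stood at 744 and 730 CPM on the left and at 816, 833 and 819 CPM on the right, and fell by 15.4% (log2 fold change -0.24, SE 0.06, adjusted p = 0.0261).

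The calls of Sv2c, Sv2a, Syn1 and Syngr1 held without any 1 of the 5 libraries (adjusted p up to 0.0435), while that of Sv2c ended in DESeq2 blocked by mouse (adjusted p = 0.0644). That of Syp ended when any 1 library but left 1037 was left out (adjusted p 0.0663 to 0.112) and in the fits blocked by mouse (adjusted p = 0.0517 in edgeR and 0.119 in DESeq2). Syn3, Syngr3 and Sypl had -0.53, 0.02 and -0.04 and did not pass. Syn3 shares 1733 exonic bases with Timp3, which lies inside it, so its count of reads is uncertain.

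Among 9 calcium sensors 2 fell and 1 rose, with a median of 0.03. Syt1 stood at 1442.8 and 1380.3 CPM on the left and at 1631.8, 1718.8 and 1551.1 CPM on the right. The groups did not overlap, and Syt1 fell by 18.4% (log2 fold change -0.29, SE 0.07, adjusted p = 0.0248). This call ended without right 1037, right 1038 or left 1039 (adjusted p 0.0624 to 0.126) and in edgeR blocked by mouse (adjusted p = 0.0503), but not in DESeq2 with that block (0.0441). Syt6, a further synaptotagmin, stood at 252 and 266 CPM on the left and at 351, 371 and 338 CPM on the right. Syt6 (chromosome 3, 103575231 to 103645569) fell by 30.7% (log2 fold change -0.53, SE 0.06, adjusted p = 0.00142), also without any 1 library (adjusted p up to 0.0102). It shares 505 exonic bases with the pseudogene Atg4a-ps.

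Doc2a, a Doc2 protein linked to spontaneous and asynchronous release, went the other way. It stood at 20.9 and 25.6 CPM on the left and at 13.8, 10.2 and 16.2 CPM on the right. The groups were separate and Doc2a rose by 64% (log2 fold change 0.71, SE 0.18, adjusted p = 0.0336). Its call ended without right 1037, right 1038 or left 1039 (adjusted p 0.0654 to 0.158) and in DESeq2 blocked by mouse (0.379). Doc2a shares 1103 of its 2803 exonic bases with Ino80e, which had -0.03 (adjusted p = 0.864), and how its shared reads were assigned is not known. Doc2b had 0.34 with a wide error (SE 0.33), and Syt7, a sensor of slow release, had -0.24 (SE 0.09, adjusted p = 0.119), with -0.37 and adjusted p = 0.0237 without left 1037. Syt2, Syt3, Syt5 and Syt9 had 0.22, -0.01, 0.03 and 0.05 and did not pass.

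Of the 5 other synaptotagmins, Syt12 fell. It stood at 18.4 and 18.1 CPM on the left and at 33.1, 34.3 and 31.9 CPM on the right, with a narrow spread on each side. Syt12 (chromosome 19, 4445908 to 4477447), a synaptotagmin that lacks calcium binding, fell by 47.9%, with a log2 fold change of -0.94 (SE 0.09, adjusted p = 0.00069). Its range without any 1 library was -0.97 to -0.91. With all 6 libraries the value was 0.64 (adjusted p = 0.765), and the library labelled left 1038 held 119 CPM. Syt11 stood at 544 and 546 CPM on the left and at 537, 537 and 540 CPM on the right. Syt4, Syt11 and Syt13 had -0.25, -0.06 and -0.22 and Syt17 had 0.62 (SE 0.23, adjusted p = 0.129). Blocked by mouse, Syt4 and Syt17 passed in edgeR (adjusted p = 0.048 and 0.0283) but not in DESeq2 (0.474 and 0.545), and Syt17 passed without right 1039 (0.91, adjusted p = 0.0281).

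The genes of SNARE fusion and disassembly held 3 falls and 0 rises among 9, with a median of -0.22. Cplx1 showed the largest fall of the 14 members called lower at a mean of at least 100 CPM. It stood at 585 and 519 CPM on the left and at 863, 881 and 861 CPM on the right. The right libraries lay within a narrow band well above both left ones, and Cplx1 (chromosome 5, 108518554 to 108550024) fell by 39.9% (log2 fold change -0.74, SE 0.07, adjusted p = 0.00057). Without any 1 library its value ran from -0.82 to -0.64 (adjusted p up to 0.0059).

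Cplx2, complexin 2, stood at 204 and 241 CPM on the left and at 271, 277 and 266 CPM on the right, and fell by 22.6% (log2 fold change -0.37, SE 0.07, adjusted p = 0.0134). Snap25 stood at 1676.1 and 1743.2 CPM on the left and at 1997.3, 2033.7 and 1980.1 CPM on the right, and fell by 19.4% (log2 fold change -0.31, SE 0.06, adjusted p = 0.0113). Left and right did not overlap for either gene. The call of Cplx2 ended without left 1037 or right 1037 (adjusted p 0.0525 to 0.054) and that of Snap25 without right 1037 or right 1038 (adjusted p 0.0763 to 0.0785). With all 6 libraries their values were 0.45 and 0.03 (adjusted p = 0.731 and 0.97).

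The partner SNAREs did not pass in edgeR, though Vamp2 lay near the threshold. Vamp2 stood at 1011.5 and 1063.4 CPM on the left and at 1099.9, 1177.2 and 1138.6 CPM on the right, with -0.22 (SE 0.06, adjusted p = 0.052). Vamp2 did pass by DESeq2 (adjusted p = 0.00849), by limma-voom (0.0288) and by edgeR with no filter (0.0463). Vamp1 had -0.20. Stx1a, syntaxin 1A, stood at 40.4 and 46.3 CPM on the left and at 40.9, 40.9 and 42.9 CPM on the right, with -0.02 (SE 0.09, adjusted p = 0.904). Nsf, the ATPase that takes spent SNARE complexes apart, had 0.06 (SE 0.05, adjusted p = 0.529), and Cplx3 had -0.14 (SE 0.20).

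Napb, a SNAP adaptor through which Nsf binds SNARE complexes, differed between the mice as well as the sides. It stood at 519 CPM in left 1037 against 657 CPM in right 1037, and at 387 CPM in left 1039 against 440 CPM in right 1039, with 555 CPM in right 1038. Both bulbs of mouse 1039 lay below both of mouse 1037, and the left was the lower side within each mouse. Without a term for the mouse it had -0.37 (SE 0.16, adjusted p = 0.197). Blocked by mouse it had -0.35 and passed in edgeR (adjusted p = 0.00647) and in DESeq2 (0.00996).

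Genes of Rab3 and the active zone held 5 falls and 1 rise among 12, with a median of -0.25. The pair that moved apart were the Munc13 priming factors. Unc13a (Munc13-1), the main priming factor of most excitatory and inhibitory synapses, stood at 389 and 377 CPM on the left and at 471, 442 and 459 CPM on the right. The left lay below the right and Unc13a (chromosome 8, 71624417 to 71671757) fell by 21% (log2 fold change -0.34, SE 0.06, adjusted p = 0.00723).

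Unc13b (Munc13-2) stood at 85.6 and 78.1 CPM on the left and at 49.6, 43.9 and 54.5 CPM on the right. Here the left lay above the right, and Unc13b (chromosome 4, 43058953 to 43264871) rose by 56.8% (log2 fold change 0.65, SE 0.09, adjusted p = 0.00334). Both calls held without any 1 library (adjusted p up to 0.0414). Unc13a shares 495 exonic bases with Colgalt1, which had 0.14 (adjusted p = 0.586). Unc13c had -0.48 (SE 0.19, adjusted p = 0.149), and passed without left 1037 (-0.87, adjusted p = 0.0117). Blocked by mouse it passed in edgeR (adjusted p = 0.0359) and not in DESeq2 (0.511).

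Promoter windows of these paralogues, which were called in opposite directions, and of Syn1, the other called member with a match to RE1 letters, are shown as they stand in RefSeq (GRCm38.p6, from 250 bases before to 50 bases after the start of transcription, in the direction of the gene). They and the motifs were chosen with the values and matches known. The windows are chr8:71671708-71672007 on the minus strand for Unc13a, chr4:43058703-43059002 on the plus strand for Unc13b and chrX:20920869-20921168 on the minus strand for Syn1. Capitals mark matches on either strand to the letters TTCAGCACC and GGACAGCGC, from the left and right parts of the RE1 element bound by the repressor REST, to the CRE TGACGTCA bound by CREB, and to the Egr site GCGTGGGCG.
Unc13a: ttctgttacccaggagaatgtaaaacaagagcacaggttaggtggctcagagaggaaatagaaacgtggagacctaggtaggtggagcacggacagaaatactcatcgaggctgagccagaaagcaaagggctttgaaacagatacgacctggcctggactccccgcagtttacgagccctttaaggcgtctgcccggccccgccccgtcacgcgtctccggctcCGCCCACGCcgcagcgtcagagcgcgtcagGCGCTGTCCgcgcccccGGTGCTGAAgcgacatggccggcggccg
Unc13b: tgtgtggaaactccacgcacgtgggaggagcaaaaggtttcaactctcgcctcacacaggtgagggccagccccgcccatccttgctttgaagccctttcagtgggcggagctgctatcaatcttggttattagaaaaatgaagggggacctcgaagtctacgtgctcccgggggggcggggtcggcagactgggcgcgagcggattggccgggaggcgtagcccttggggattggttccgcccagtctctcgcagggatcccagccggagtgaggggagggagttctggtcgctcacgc
Syn1: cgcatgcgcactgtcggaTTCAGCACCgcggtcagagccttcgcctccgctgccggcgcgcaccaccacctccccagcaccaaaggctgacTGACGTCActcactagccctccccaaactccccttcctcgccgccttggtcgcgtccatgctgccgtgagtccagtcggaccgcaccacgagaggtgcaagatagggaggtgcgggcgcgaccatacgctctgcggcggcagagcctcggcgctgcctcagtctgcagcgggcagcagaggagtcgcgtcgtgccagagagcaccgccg

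The Unc13a window held both parts of RE1, read on the opposite strand with 8 bases between them, and an Egr match. The Syn1 window held the left part of RE1 and the whole CRE, and the Unc13b window held none of these. Only exact letters were sought, so an element with mismatches was not counted. After the left part the Syn1 window reads gcggtcagagc, which matches the right part, 2 bases on, in most letters but not all. Of 35 members with a window in the table, TTCAGCACC was found in 2 (Syn1 and Unc13a), GGACAGCGC in 1 (Unc13a), TGACGTCA in 1 (Syn1) and GCGTGGGCG in 2 (Synj1 and Unc13a). Among all 32851 windows the shares were 0.371%, 0.405%, 1.79% and 0.612%. Exact matches to both parts joined by 2 bases, as in the whole element, were in 0 of the 35 member windows and 1 of all windows. The GC box GGGCGG was in 77.1% of member windows and 35.7% of all windows, and the median GC content was 62.7% and 52.7%. For each member 1 window was used, that with the most annotated protein-coding starts. The set of all windows was used without such a choice, so the shares come from unlike sets. These matches are descriptions of the letters, and binding was not measured.

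RNA of 2 scaffold genes of the active zone, Bsn and Pclo, was called lower. Bsn (bassoon) stood at 291 and 268 CPM on the left and at 352, 347 and 311 CPM on the right, and fell by 21.6% (log2 fold change -0.35, SE 0.07, adjusted p = 0.0175). Pclo (piccolo), its large relative, stood at 317 and 283 CPM on the left and at 356, 334 and 326 CPM on the right, and fell by 16.4% (log2 fold change -0.26, SE 0.07, adjusted p = 0.0488). The call of Bsn ended without right 1037, right 1038 or left 1039 (adjusted p 0.0697 to 0.0871). Pclo, the closest to the threshold, lost its call when any 1 library but left 1037 was left out (adjusted p 0.0711 to 0.25), with -0.17 without left 1039, and in DESeq2 blocked by mouse (adjusted p = 0.104). With all 6 libraries Bsn and Pclo had 0.10 and 0.14 (adjusted p = 0.908 and 0.859). Erc2, a further scaffold gene, had -0.12 (adjusted p = 0.285).

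Rims2, a RIM protein that links Rab3 to calcium channels, stood at 60.5 and 63.5 CPM on the left and at 71.1, 71.9 and 75.1 CPM on the right, and fell by 19.5% (log2 fold change -0.31, SE 0.07, adjusted p = 0.0167). Rims1 and Rims3 had 0.14 and -0.03 and did not pass. Rab3a, the main vesicle GTPase of the family, stood at 296 and 313 CPM on the left and at 333, 357 and 331 CPM on the right, and fell by 15.5% (log2 fold change -0.24, SE 0.06, adjusted p = 0.0356). The groups of both genes were separate, but the call of Rims2 ended without left 1037 or any 1 of the right libraries (adjusted p 0.0516 to 0.0864) and that of Rab3a without any 1 of the 5 libraries (adjusted p 0.0537 to 0.14) and in the fits blocked by mouse (adjusted p = 0.0646 in edgeR and 0.379 in DESeq2). Rims2 lost its call in DESeq2 with that block (adjusted p = 0.354). Rab3b had -0.12 and Rab3c -0.27, and Rab3c passed without left 1039 (-0.57, adjusted p = 0.00644). With the block Rab3c passed in edgeR (adjusted p = 0.0228) and not in DESeq2 (0.188).

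None of the 3 genes of vesicle retrieval passed the test in edgeR, DESeq2 or limma-voom (edgeR, 2 at an unadjusted p under 0.05). Dnm1, which pinches off endocytic vesicles, stood at 737 and 736 CPM on the left and at 742, 758 and 763 CPM on the right, with -0.12 (SE 0.05, adjusted p = 0.221). Synj1, the lipid phosphatase that uncoats them, had -0.19 (SE 0.06, adjusted p = 0.0828), and Amph (amphiphysin) had -0.14 (SE 0.06, adjusted p = 0.19).

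**Figure D3:**
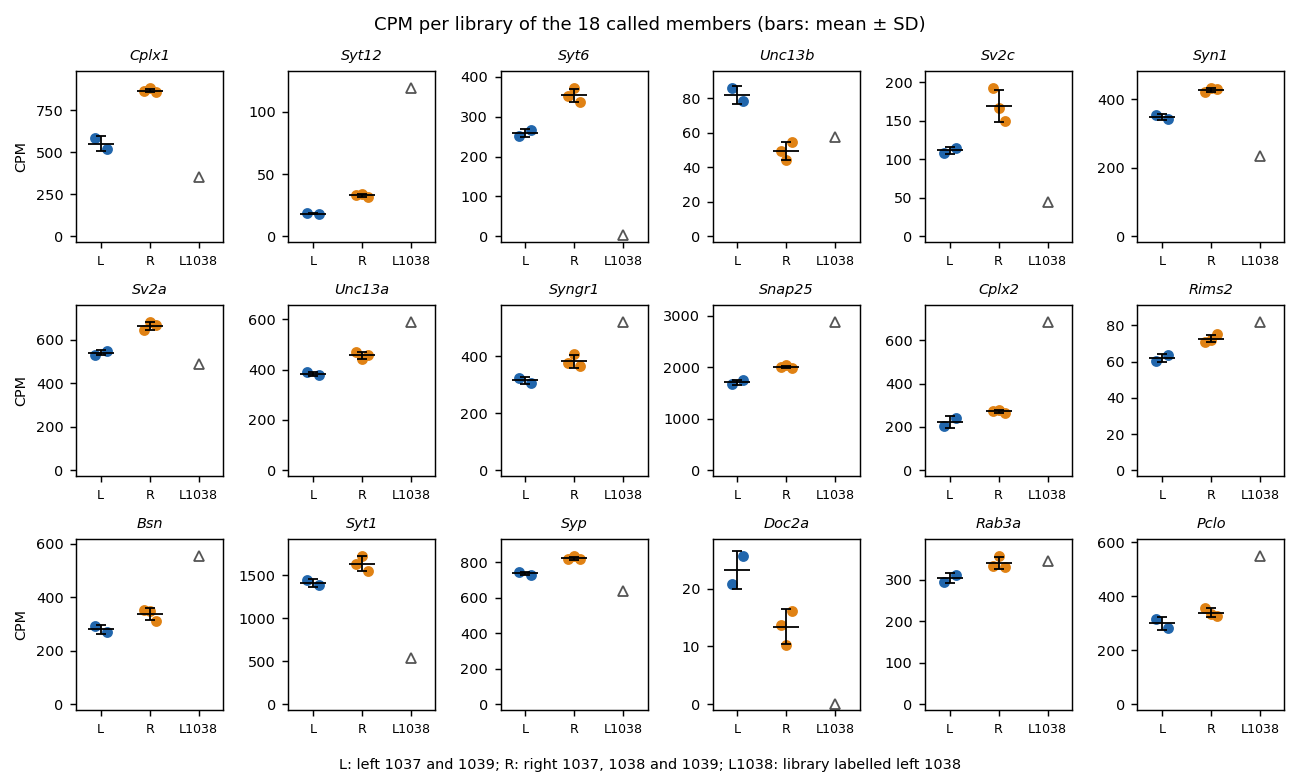
CPM per library of the 18 called members, in order of p, for the 2 left libraries (L), the 3 right libraries (R) and the library labelled left 1038 (triangle), with bars for mean ± SD. Left and right points do not overlap in any panel, and the triangle lies outside the range of the other libraries in all but those of Unc13b and Rab3a.

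Fitted with a block for each mouse, edgeR gave 17 members lower and 3 higher (7.36% and 3.41% of all genes), of which 15 were among the 18 called without it. DESeq2 with the same block gave 12 lower and 1 higher (2.47% and 0.527%), 12 of them among those 18, with Doc2a, Pclo, Rab3a, Rims2, Sv2c and Syp lost and Napb gained. The side difference of this fit rests on mice 1037 and 1039, since mouse 1038 has a right bulb alone in the 5 libraries.

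The make-up of families, as shares of the summed CPM per kb of exon, differed between the sides in several cases. Among synapsins, Syn1 held 67.3% and 64.6% in the left bulbs and 71.6% to 72.8% in the right ones. Among complexins, Cplx1 held 86.2% and 82.3% on the left and 87.4% to 87.6% on the right. Unc13b held 10.2% and 9.88% of the Munc13 family on the left and 4.87% to 5.85% on the right. In each of these families the shares of the named gene did not overlap between the sides. These shares rest on the same counts as the calls above. Of all genes tested, 21.9% had scaled values without overlap and the left lower, and 20.2% with the left higher. Those are levels of single genes, and no such background was computed for shares within a family. Syt1 held 93.4% and 94.1% of the Syt1, Syt2 and Syt9 total on the left. Each right share was higher, up to 95.1%. Sv2c held 7.56% and 7.91% of the SV2 family on the left and 8.53% or more on the right. Rims2 held 11.5% and 12.4% of the RIM family on the left and 13.9% or more on the right. The shares of Sv2a, Sv2b, Rims1, Rims3 and the Rab3 genes overlapped between the sides. Vamp2 held 98.6% to 98.7% of the Vamp pair in all 5 libraries. Shares within a family are tied to each other and were not tested.

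**Figure D4:**
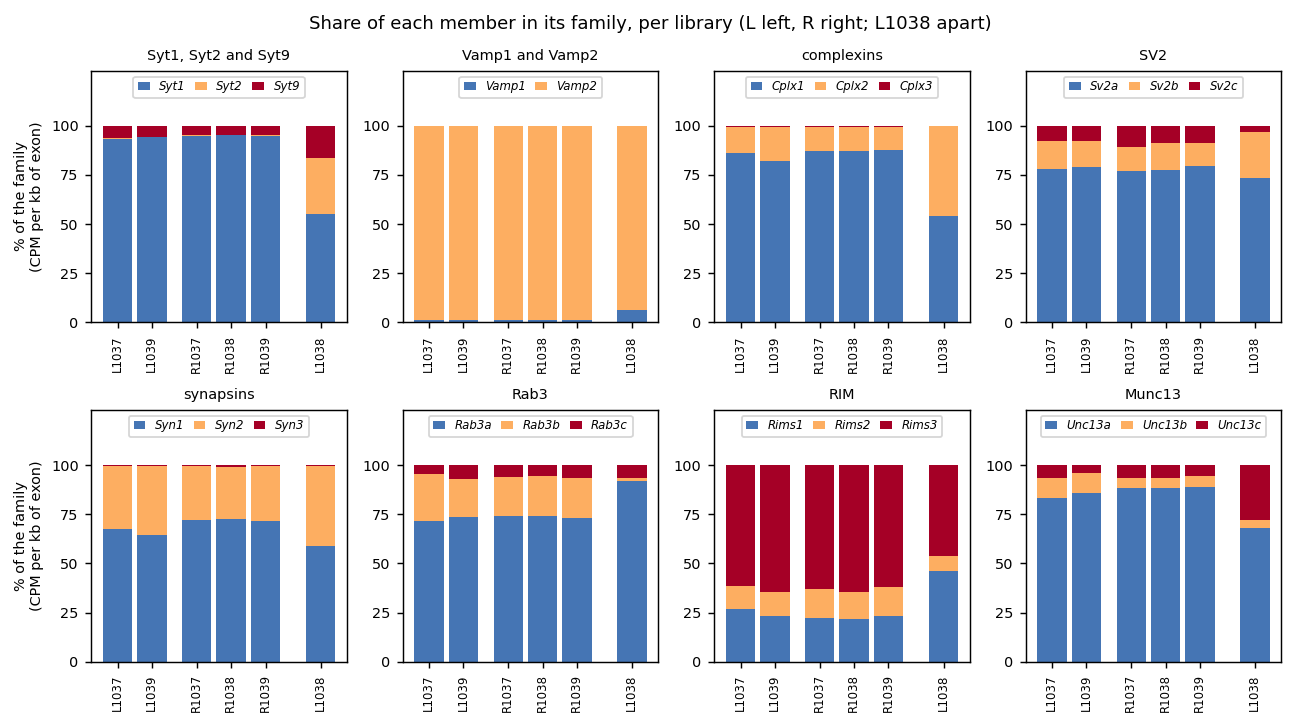
Share of each member in the summed level of its family (percent of CPM per kb of exon) in each library, with the library labelled left 1038 set apart at the right of each panel. Syt2, Cplx2, Rims1 and Unc13c take larger shares in the library labelled left 1038, with 28.5%, 46%, 46.3% and 28.1%, than in any of the 5 others.

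Other genes of the vesicle cycle, 78 in a list of 4 roles, held more falls than rises. Of these, 77 were in the table and 74 were tested, and 19 fell and 1 rose, with a median log2 fold change of -0.14. The shares of all genes called lower and higher are the 6.46% and 3.16% given above. Among genes with a mean of at least 100 CPM, a level that many genes of this list reach, those shares were 17.4% and 3.93%. Scaled by total library size, 12 genes of the list fell and 1 rose, with a median of -0.06. Without right 1037, 9 fell (3.35% of all genes in that fit), and without right 1038 also 9 (3.41%).

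Partners of the SNAREs held 5 falls among 15 genes tested. Stxbp6 (amisyn) and Stxbp5l (tomosyn-2), which hold back SNARE assembly, fell by 0.58 and 0.51 (adjusted p = 0.00236 and 0.00691).

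Of 18 Rab and active zone partners 3 fell, among them Rimbp2, which joins RIM to calcium channels, with 163.7 ± 5.43 CPM on the right and 128.5 ± 0.997 CPM on the left (-0.43, SE 0.06, adjusted p = 0.00221), and Lin7a (-0.41, adjusted p = 0.00379). Of 18 genes of vesicle membrane and filling 5 fell, among them Slc32a1, the vesicular GABA transporter (-0.46, adjusted p = 0.00768), and Atp6v1a, a subunit of the proton pump (-0.31, adjusted p = 0.0129). Of 23 endocytosis partners 6 fell, among them Sgip1 (-0.34, adjusted p = 0.00503) and Ston2 (stonin 2, -0.95, adjusted p = 0.00786), and Dnm2, the dynamin found in most tissues, rose by 0.31 (adjusted p = 0.0154). The calls of the named genes that fell held without any 1 library, except that of Atp6v1a, which ended without right 1037 or right 1038 (adjusted p 0.0616 to 0.0661). That of Dnm2, the only rise of the list, ended without right 1038 or left 1039 (adjusted p 0.0504 to 0.0527).

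Some markers of cell types were called between the sides as well, and their part in the results above was not tested. Of all genes tested, 6.46% were called lower and 3.16% higher. The sums given for these markers are of CPM without the scaling of the fit. On that scale 33.2% of all genes tested lay higher on the left without overlap, and 13.2% lower. Of 12 general neuronal genes 2 fell (Map2 and Eno2) and 1 rose (Stmn2), with a median of 0.0061 and a summed level of 4013.7 to 4136.3 CPM on the left and 4201.3 to 4336.7 CPM on the right. Of 7 markers of sensory neurons, whose axon terminals lie in the bulb, 5 fell and 0 rose, and the sum was 57.4 and 112.9 CPM on the left and 294.3 to 363.4 CPM on the right. Of 10 interneuron markers 4 fell and 1 rose (sums of 3200 and 3595.2 CPM on the left, 3931 to 4186.4 CPM on the right), and of 6 dopaminergic markers 3 fell (210.2 and 213.8 CPM, against 377.8 to 433.3 CPM).

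Mitral and tufted cell markers held 1 fall and 2 rises among 9 (2219.7 and 2633.2 CPM on the left, 2215.1 to 2273.2 CPM on the right). Astrocyte markers held 1 fall and 3 rises among 7 (2888.1 and 2907.8 CPM, against 2362.7 to 2595.4 CPM), and microglial markers 1 rise among 6 (219.7 and 227.9 CPM, against 172.4 to 179.9 CPM). Of 7 oligodendrocyte markers 0 were called (1960.4 and 2338.2 CPM, against 1897.1 to 2386.2 CPM; edgeR, 2 at an unadjusted p under 0.05, and 0 by DESeq2 or limma-voom), and of 5 endothelial markers 1 fell (168.1 and 178.4 CPM, against 175.1 to 199.9 CPM). Of 4 cerebellar granule markers tested 1 rose (Neurod1, sums of 100.8 and 115 CPM, against 73.6 to 79.3 CPM), and of 5 Purkinje markers tested 0 were called (237.8 and 242.1 CPM, against 217.6 to 225.1 CPM; edgeR, 0 at an unadjusted p under 0.05, and 0 by DESeq2 or limma-voom). No marker of these lists was at 0 in any of the 5 libraries. Slc32a1, Slc17a6, Slc17a7, Slc18a2 and Synpr stand both in a marker list and in the list of other vesicle genes.

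The library labelled left 1038 differed in its mix of paralogues of the release machinery. It is 1 library with no replicate, so values are given without a test, against the median of the other 5 libraries and with 95% Poisson intervals that cover counting error only. Of the 48 genes, 10 exceeded that median more than 2-fold and 11 were under it by more than 2-fold, where 9.55% and 17.4% of 14066 genes with at least 1 CPM did so. TMM scaling left these counts at 10 and 11 (9.88% and 17.0% of genes). Past 4-fold there were 4 above and 7 below, against 3.58% and 8.75%.

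Syt2, the fast calcium sensor known from hindbrain and cerebellar synapses, stood at 252 CPM in this library and at 2.32 to 4.79 CPM in the others, a ratio of 80.8 (78.2 to 83.5). Unc13c (Munc13-3), known for its expression in cerebellar granule cells, stood at 169 CPM against 12.9 to 24 CPM, a ratio of 8.04 (7.73 to 8.37). Doc2b stood at 108 CPM against 4.97 to 15.3 CPM, a ratio of 7.99 (7.6 to 8.4). Rims1 stood at 369 CPM against 74.1 to 101 CPM, a ratio of 4.38 (4.26 to 4.5). These were the 4 genes past 4-fold on the high side.

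Of these 4 genes, the sides of the 5 other libraries overlapped for Syt2, which stood at 4.79 and 3.12 CPM on the left and at 4.75, 2.32 and 2.53 CPM on the right. Unc13c stood at 21 and 12.9 CPM on the left and at 24, 23.4 and 19.5 CPM on the right. Doc2b stood at 13.5 and 15.3 CPM on the left and at 12.1, 4.97 and 15.1 CPM on the right. The low value of right 1038 widened the spread of Doc2b. Rims1 stood at 101 and 84.4 CPM on the left and at 74.1, 79.8 and 85.7 CPM on the right, again with overlap.

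On the low side, Syt6 stood at 4.32 CPM against 252 to 371 CPM, a ratio of 0.0128 (0.00983 to 0.0164). Rab3b, a Rab3 form of restricted expression, stood at 9.2 CPM against 132 to 158 CPM, and Stx1a at 3.64 CPM against 40.4 to 46.3 CPM, with ratios of 0.0638 and 0.089. Syt5 stood at 9.95 CPM against 64 to 78.3 CPM (ratio 0.138, 0.117 to 0.163), Cplx3 at 0.686 CPM against 4.28 to 5.91 CPM (ratio 0.126, 0.0606 to 0.232) and Erc2 at 26.8 CPM against 116 to 129 CPM (ratio 0.218, 0.197 to 0.241). Doc2a had 1 count, a ratio of 0.00424 (0.000107 to 0.0236).

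The CPM values of the sides overlapped in the 5 other libraries for Rab3b, Syt5, Cplx3 and Erc2 too. With the scaling of the fit those of Erc2 did not overlap, with the left lower, as for 21.9% of all genes tested. Rab3b stood at 155 and 132 CPM on the left and at 141, 158 and 144 CPM on the right, and Syt5 at 71.9 and 78.3 CPM on the left and at 71.5, 64 and 73.2 CPM on the right. Cplx3 stood at 4.28 and 5.91 CPM on the left and at 5.45, 5.43 and 4.98 CPM on the right. Erc2 stood at 118 and 123 CPM on the left and at 116, 125 and 129 CPM on the right.

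Other members lay within 4-fold of the median of the other 5 libraries. More than 2-fold above it were Syt3, Syt4, Syt12, Syt13, Vamp1 and Cplx2, with ratios from 2.24 (Syt13) to 3.72 (Syt12). More than 2-fold below it were Syt17, Sv2c, Syt1 and Cplx1, with ratios of 0.254, 0.299, 0.344 and 0.413. Syn2, Rab3a, Unc13b, Rab3c, Amph and Synj1 had ratios between 0.909 and 1.1. Snap25 had 1.45 and Dnm1 1.45, while Vamp2 had 0.681 and Syp 0.78. Within families, Syt1 held 55.2% of the Syt1, Syt2 and Syt9 total against 93.4% to 95.1% elsewhere, and Rab3a 91.8% of the Rab3 total against 71.6% to 74.1%.

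**Figure D5:**
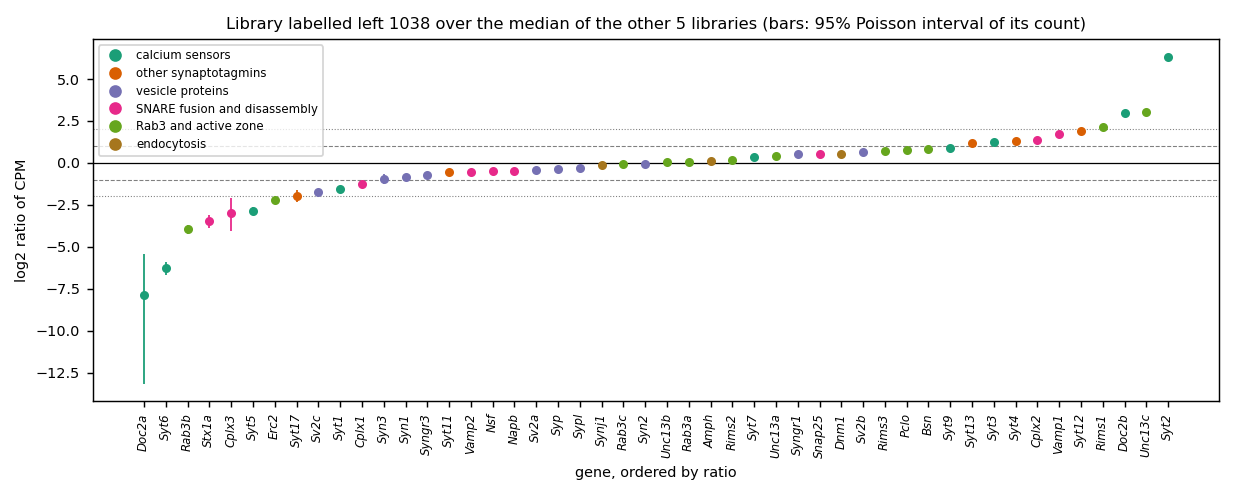
Log2 ratio of the CPM in the library labelled left 1038 to the median of the other 5 libraries for each member, coloured by role, with bars for the 95% Poisson interval of its count, dashed lines at 2-fold and dotted lines at 4-fold. Syt2 lies at the top with a ratio of 80.8, and Syt6 and Doc2a, the latter from 1 count, at the bottom.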

How the data were processed

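The deposited table holds, per the file headers, a read count for each gene and library, as whole numbers without normalization, beside a gene length and the authors' RPKM values. Recomputed from count, length and library total, the deposited RPKM differed by at most 3.8e-11. For 78.41% of annotated genes that length was within 1 base of the genomic span, so RPKM was not used further. The tools named in the submitters' processing notes are DESeq 1.18.0, HTSeq 0.6.1p2, TopHat2 and cutadapt 1.2.1, and the build is GRCm38. What each did, and whether counting used strand, is not given in the sources.

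Symbols were matched by Ensembl identifier for 21852 of 22095 genes, and exon lengths were merged from GENCODE M21 (GRCm38). Sides were compared with edgeR 4.0.16 in R 4.3.3 (TMM, filterByExpr, glmQLFit and glmQLFTest, side as the only term). The SE is the log2 fold change over the square root of F, and all tests are two-sided. No 2 libraries were identical (0 pairs).

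The bulbs of a mouse carry its number in the labels and come from the same animal. Their deviations from the group means correlated at 0.23 (mouse 1037) and 0.236 (mouse 1039) in the 5 libraries compared, and at 0.082, 0.048 and 0.125 (mice 1037, 1038 and 1039) in all 6. The alternatives were a block for each mouse (edgeR and DESeq2). Others were RLE scaling, total library size, other filters, DESeq2 1.42.0, limma-voom (limma 3.58.1), all 6 libraries and leaving out each library.

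The scripts were tested on simulated data, where edgeR's calls held more false ones than the nominal share and 1.5-fold changes were often missed.

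The members and lists were chosen with earlier results of these data known, and the library labelled left 1038 was set apart for that reason. Given with values in every library were the called members, the highest per exon length in each role, and members over 4-fold from the others in that library. Of other vesicle genes the 10 with the smallest p among those called were to be named, of which some are not reported here, and Dnm2 was named after its values were seen, as were the remaining members that did not pass.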

Additional observations from a re-analysis of the deposited data

How the results depend on the processing

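In all 6 libraries edgeR called 0 genes, 0 members and 0 other vesicle genes in either direction, against 1387, 18 and 20 in the 5 libraries, with members' median -0.0462. There Syt12, Snap25, Cplx2, Bsn, Pclo and Lin7a reversed sign, with 0.64, 0.0289, 0.45, 0.10, 0.14 and 0.38, where the library labelled left 1038 was the one added. Scaled by total library size the members' median was -0.13, and 12 other vesicle genes were called lower with a median of -0.0599. With the replicate block (the mouse), the members' median was -0.19 by edgeR and -0.18 by DESeq2. DESeq2 with the block called 432 genes, with 12 members lower, 1 member higher and 0 other vesicle genes higher. By edgeR the block changed no call of a member or named vesicle gene beside those given there. Without 1 library each, all genes called ran from 660 to 1096, members lower from 8 to 15, members higher from 1 to 3, the members' median from -0.22 to -0.16, other vesicle genes lower from 9 to 16 and higher from 0 to 2, with a median from -0.14 to -0.12. The cause of these shifts was not tested. RLE scaling, leaving out the filter, requiring 1 CPM in at least 3 libraries, limma-voom and DESeq2 without the block kept each count within 1.5 times. DESeq2 also called Sv2b and Vamp2, and limma-voom and edgeR without a filter also called Vamp2. Under RLE scaling, no filter and the 1 CPM filter Pclo lost its call. In the library labelled left 1038, 4 members were past 4-fold above and 7 below, against 10 and 11 past 2-fold, which TMM scaling left at 10 and 11. The 2 left libraries limit the precision, and genes that did not pass are not shown to be the same on both sides.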
